A study of Mus musculus with 48 samples.

Results

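*Parpbp* and *Pmch* are 2 of the 48440 genes in the count table, and their exons overlap on opposite strands of mouse chromosome 10. *Parpbp* was chosen by its measured lg2FC for GE2, the contrast that subtracts the effect of maternal separation (MS) in *Tph2*+/+ mice from that in *Tph2*-/- mice, and *Pmch* was chosen because it lies opposite to it. The values of both genes in that contrast and in the groups it uses are therefore given as a description, without a test, and so are relations of *Parpbp* with other genes over all mice. Tests were made in the *Tph2*+/- mice, which that contrast does not use. Total RNA from the amygdala of 48 male C57BL/6 mice aged 4 months (a C57BL/6N background by the study's methods) was sequenced, with 8 mice in each of 6 groups. The mice were *Tph2*+/+, *Tph2*+/- or *Tph2*-/- offspring of *Tph2*+/- parents, and *Tph2* encodes the enzyme that makes serotonin in the brain. Each genotype was kept under control rearing (C, labelled as no stress) or underwent MS, in which pups were kept from their dam for 3 h per day between postnatal days 2 and 15. The *Tph2* inactivation is carried by the whole animal, and the tissue of both hemispheres was blended for each mouse. The question addressed was how the counts of the gene pair were spread over mice and groups, and whether mice with high counts also had high counts of hypothalamic genes.

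*Pmch* encodes the precursor of melanin-concentrating hormone (MCH), a peptide made by neurons of the lateral hypothalamus and the zona incerta that is known for its part in feeding, energy balance and sleep. MCH acts through the G protein-coupled receptor encoded by *Mchr1*. *Parpbp* encodes a protein that binds PARP1 and PCNA and restrains homologous recombination, and it is known mainly from dividing cells. The lateral hypothalamus lies medial to the amygdala, and the choroid plexus, the epithelium that makes cerebrospinal fluid, lies close to it in the lateral ventricle.

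On GRCm38 with GENCODE M21, *Parpbp* (ENSMUSG00000035365) lies on the minus strand at chr10:88091432-88146941 and has 3594 exonic bases, and its main transcript has 11 exons. *Pmch* (ENSMUSG00000035383) lies on the plus strand at chr10:88091072-88092375, has 3 exons and 749 exonic bases, and sits over the 3′ end of *Parpbp*. The genes share 435 exonic bases, which is 12.1% of the exonic length of *Parpbp* and 58.1% of that of *Pmch*. Of these, 199 bases (chr10:88091688-88091886) are the whole of *Pmch* exon 2 and 236 bases (chr10:88092140-88092375) are the whole of *Pmch* exon 3. Both lie opposite to *Parpbp* exon 11 (chr10:88091432-88093186), in the part of it that is 3′ UTR (chr10:88091432-88092857). The 314 bases of *Pmch* exon 1 lie outside *Parpbp*, 46 bases beyond its end, and the starts of the genes are 55869 bases apart. No other gene overlaps their exons.

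**Figure D1:**
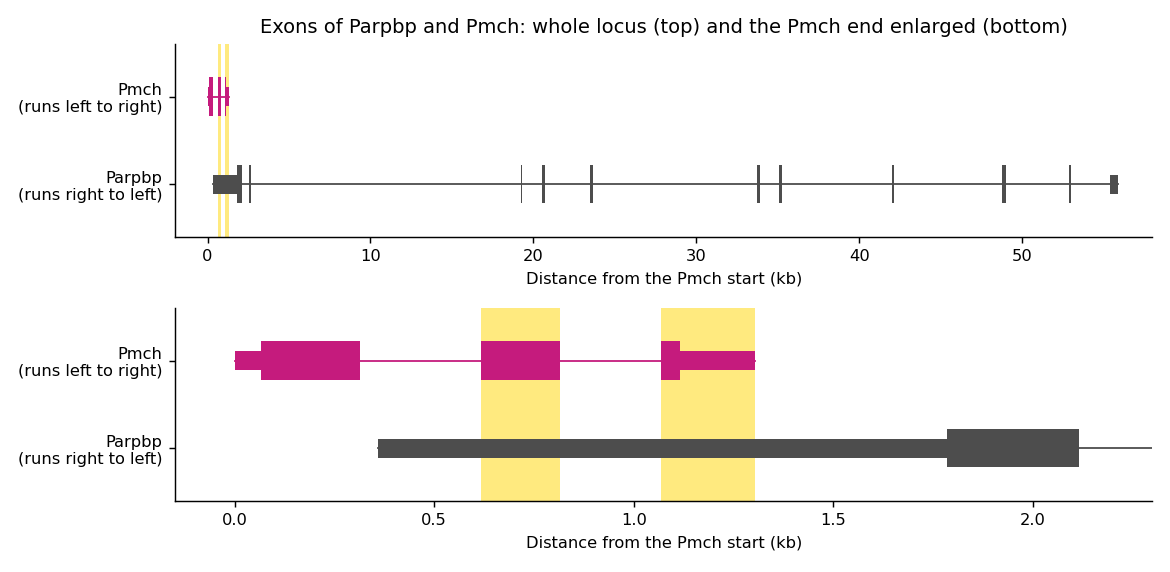
Exons of *Parpbp* and *Pmch*, drawn to scale as distance from the *Pmch* start in kb, for the whole locus (top) and the *Pmch* end enlarged (bottom). Tall boxes are coding, low boxes are UTR, and the yellow bands mark the 435 shared exonic bases, which cover *Pmch* exons 2 and 3 and fall within the last exon of *Parpbp*.

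The 30 bases below are the last coding bases of *Pmch* before its stop codon, within the mature MCH part of the precursor, at chr10:88092157-88092186. They are shown because the same base pairs belong to both genes and only the strand of a read tells them apart, first as the *Pmch* transcript reads them and then as the *Parpbp* transcript does.
*Pmch* strand (+): ggaagagtctaccgaccatgttggcaagtc
*Parpbp* strand (-): gacttgccaacatggtcggtagactcttcc

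The 100 bases before each start, from RefSeq on GRCm38.p6, are shown because the genes share exons but not a promoter. Capitals mark TATAAA, which was searched on both strands.
*Pmch*, chr10:88090972-88091071 (+): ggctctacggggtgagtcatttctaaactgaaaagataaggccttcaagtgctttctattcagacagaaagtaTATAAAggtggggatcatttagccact
*Parpbp*, chr10:88146942-88147041 (-): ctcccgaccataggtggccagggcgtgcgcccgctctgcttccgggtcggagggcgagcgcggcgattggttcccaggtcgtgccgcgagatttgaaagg
The *Pmch* stretch has 41.0% G or C and 1 CpG, and its TATAAA ends 21 bases before the start. The *Parpbp* stretch has 69.0% G or C and 13 CpG and holds no TATAAA. Among the same 100 bases of 32851 promoters, 5.56% hold TATAAA on either strand.

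The libraries were made with a stranded kit, and the strand setting of the counting is not given in the sources used here. Each mouse had between 609489 and 6296568 counts on genes (median 738490), and between 419364 and 868469 (median 679412.5) once *Lars2* and *Gm42418* were left out, 2 genes that took most counts in some libraries. Between 75.8% and 97.6% of the read pairs with a unique position (median 97.5%) were counted for no gene, which under counting by strand would include pairs on the strand opposite to a gene. Among 1439 pairs of a protein-coding and a non-coding gene with at least 100 shared exonic bases on opposite strands and a pair mean of at least 10 counts, the non-coding gene had more counts per kb in 1279 (88.9%). *Tph2* had 0 counts in 46 mice and 1 in each of 2, so that it could not serve as a check of the genotypes. Of 10 genes known to be abundant in brain 4 had a mean of at least 10 counts, among them *Gapdh* with 58.5. Others were low too, with a mean of 7.10 counts per mouse for the actin gene *Actb*. The ubiquitin gene *Ubb* had a mean of 1.40 and was 0 in 19 mice. Of 13 mitochondrial genes 7 had a mean of at least 10 counts, up to 951 for *mt-Cytb*. In the same list *mt-Atp8* and *mt-Nd4l* were 0 in all 48 mice. A count near 0 in these libraries therefore does not show that a gene was little expressed. Whether the reads in the row of *Parpbp* came from *Parpbp* or from *Pmch* was not tested, because gene-wise counts do not hold the position or strand of a read.

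*Parpbp* had few counts in nearly every mouse and 705 in a single one. Its count was at or below 3, taken here as the floor, in 19 of the 48 mice. The Poisson 95% interval of a count of 0 reaches 3.69. In *Tph2*+/+ C mice the *Parpbp* count was between 0 and 16 with a median of 3, and in *Tph2*+/+ MS mice it was between 3 and 16 with a median of 4.5. In *Tph2*+/- C mice it was between 1 and 36 (median 4.5), and in *Tph2*+/- MS mice between 1 and 18 (median 6). In *Tph2*-/- C mice it was between 1 and 705 (median 7), and in *Tph2*-/- MS mice between 1 and 62 (median 7). The ranges of all 6 groups overlapped, and the highest mouse of each group stood well above the group median. The mouse with 705 counts was replicate 7 of *Tph2*-/- C, in which the Poisson 95% interval of the count was 653.9 to 759, an interval that covers counting error only. It held 65.0% of the 1084 *Parpbp* counts of the study and 93.3% of those of its group. The other 7 mice of that group had 1, 20, 1, 3, 4, 12 and 10 counts.

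**Figure D2:**
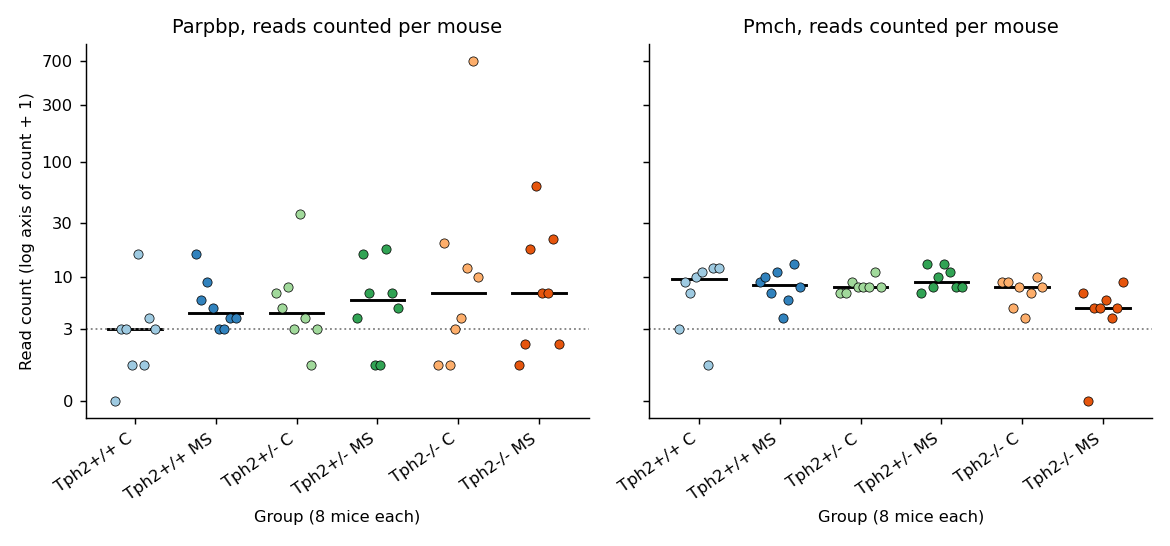
Read counts of *Parpbp* (left) and *Pmch* (right) for each mouse, by group, on a log axis of count + 1. Each point is 1 of 8 mice, the black line is the group median and the dotted line marks 3 counts. *Parpbp* spans 0 to 705 counts and *Pmch* 0 to 13, and the groups overlap for both genes.

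After scaling to library size with TMM (CPM), the group medians of *Parpbp* were, from the highest, 8.02 CPM for *Tph2*-/- C mice and 7.01 CPM with MS, 6.83 CPM for *Tph2*+/- mice with MS and 6.22 CPM without it, and 5.64 CPM for *Tph2*+/+ mice with MS and 3.73 CPM without it. Each step between neighbours in that order was smaller than the SD within either group, the smallest of which was 5.91 CPM. The mean count of *Tph2*-/- C was 94.5 ± 246.8 (SD, n = 8), while *Tph2*-/- MS had 15.1 ± 20.5 (SD, n = 8). With the library sizes left without *Lars2* and *Gm42418*, 3 counts corresponded to between 3.45 and 7.15 CPM (median 4.42), so that most of these medians lay near the level of a few reads.

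*Pmch* was low and even. In *Tph2*+/+ C mice the *Pmch* count was between 1 and 12 (median 9.5), and in *Tph2*+/+ MS mice between 4 and 13 (median 8.5). The *Tph2*+/- C mice had between 7 and 11 counts (median 8) and the *Tph2*+/- MS mice between 7 and 13 (median 9). The *Tph2*-/- C mice had between 4 and 10 counts (median 8) and the *Tph2*-/- MS mice between 0 and 9 (median 5). No mouse stood apart, the ranges of the 6 groups overlapped, and the mouse with 705 *Parpbp* counts had 10 *Pmch* counts. Scaled to CPM, the medians were 12.2 for *Tph2*+/+ C mice, 11.8 for *Tph2*+/- mice with MS, 10.6 for *Tph2*+/+ mice with MS, 10.5 for *Tph2*+/- C mice, and 9.57 and then 6.53 for *Tph2*-/- mice without and with MS. The smallest SD of CPM within a group was 2.16 (*Tph2*+/- C, n = 8), and the steps between neighbours were below the SD of both groups except for the last, where the SDs were 2.34 and 3.80 CPM. In this bulk tissue, fewer cells that express a gene and less RNA per cell cannot be told apart.

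Per kb of exonic length the median level over all mice was 1.36 CPM for *Parpbp* and 13.9 CPM for *Pmch*. The highest mouse reached 213.9 CPM per kb for *Parpbp* and 23.8 for *Pmch*. These are levels of the rows of the table, and which gene the reads of a row came from was not tested.

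The spread over mice was compared with that of counting error alone, as the variance around the count that each library size predicts, divided by that count. This ratio is near 1 where mice differ by counting error only. It was 390 for *Parpbp* over the 48 mice and 14.1 without replicate 7 of *Tph2*-/- C, so that the other 47 mice also varied beyond counting error. For *Pmch* it was 1.14. Among 5012 genes with a mean of 5 to 30 counts the median ratio was 1.33, none was above that of *Parpbp*, and 3544 were above that of *Pmch*. The gene with the next highest ratio was *9330162012Rik* with 25.7. *Parpbp* was singled out for its values in these mice, so that its place in this order is a description.

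**Figure D3:**
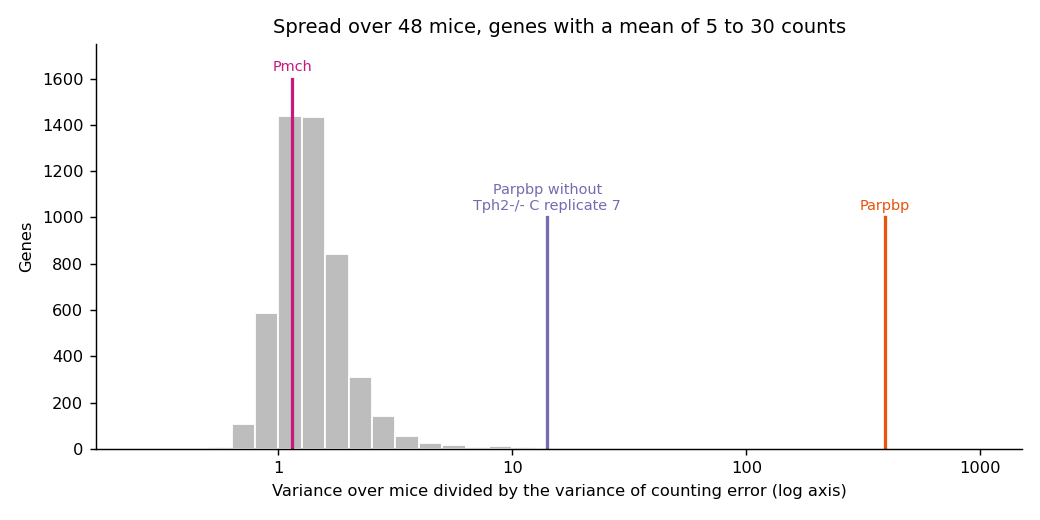
Number of genes by the ratio of the variance over 48 mice to that of counting error, on a log axis, for 5012 genes with a mean of 5 to 30 counts. Lines mark *Pmch* at 1.14, within the bulk of the genes, *Parpbp* at 390, and *Parpbp* without replicate 7 of *Tph2*-/- C at 14.1.

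For GE2, the *Parpbp* lg2FC was -2.99 (standard error, SE, 0.38), with 1.01% of the 32234 genes tested called in that contrast, where a call needed p below 0.01 before adjustment together with a lg2FC beyond 0.2 in either direction. Without replicate 7 of *Tph2*-/- C it was 0.56 (SE 0.47), so that 1 mouse set its sign. DESeq2 gave 0.60 (SE 1.03). It replaces counts that its Cook's distance marks as outlying, and for *Parpbp* it replaced a single count, the 705 of that mouse, by 5. With robust edgeR the lg2FC was the same but its standard error was 1.76. The GE2 value of *Pmch* was -0.40 (SE 0.44).

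The contrasts on which GE2 rests share the same mice and are given side by side. MS against C in *Tph2*+/+ mice, where 1.57% of genes were called, had a *Parpbp* lg2FC of 0.51 (SE 0.33) and a *Pmch* lg2FC of -0.11 (SE 0.29). In *Tph2*-/- mice, where 0.959% of genes were called, the values were -2.49 (SE 0.17) for *Parpbp* and -0.50 (SE 0.33) for *Pmch*. Without replicate 7 of *Tph2*-/- C the *Parpbp* value was 1.07 (SE 0.28). The SE of *Parpbp* depended on the fit. With robust edgeR the SE of the -2.49 was 0.82. DESeq2, which replaced the count of 705, gave 1.19 (SE 0.71). GE1 is the same contrast as GE2 with *Tph2*+/- in place of *Tph2*-/-, and 1.75% of genes were called in it. The GE1 values were -0.70 (SE 0.42) for *Parpbp* and 0.33 (SE 0.41) for *Pmch*.

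The 16 *Tph2*+/- mice are not part of GE2, and there the effect of MS was tested. Neither gene was called, against 1.01% of all genes (325 of 32234, of which 131 were higher and 194 lower with MS). By edgeR the lg2FC of *Parpbp* was -0.20 (SE 0.27, adjusted p = 1) and that of *Pmch* was 0.22 (SE 0.29, adjusted p = 0.982). The SE of *Parpbp* was 0.71 with DESeq2, 1.13 after filterByExpr and 1.27 with robust edgeR, and its lg2FC was -0.53 (SE 0.31, adjusted p = 0.871 in edgeR) when the 7 controls of the highest animal numbers were left out. The median *Parpbp* level was 6.83 CPM with MS and 6.22 CPM under C (U = 35, p = 0.798, two-sided exact permutation, n = 8 per group). For *Pmch* it was 11.8 CPM with MS and 10.5 CPM under C (U = 39, p = 0.505, two-sided exact permutation, n = 8 per group). The smallest p this test can give is 0.000155. A p of this size does not show that the levels were alike.

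No relation between the counts of the 2 genes was detected over the 16 *Tph2*+/- mice, where Spearman's rho between their CPM was 0.09 (p = 0.737, adjusted p = 0.873 over 7 relations) and Pearson's r on log2(CPM + 1) was 0.03 (p = 0.903, adjusted p = 0.988), each from 100000 permutations. Without the pair of these mice farthest from their median r was -0.06. Over all 48 mice, which include those of GE2, rho was -0.005 and r was 0.12, r was 0.17 without the farthest pair, and with ranks taken within the 6 groups rho was 0.24. The next highest *Parpbp* mice had *Pmch* counts within the range of the other mice. Replicate 4 of *Tph2*-/- MS had 62 *Parpbp* and 5 *Pmch* counts, and replicate 5 of *Tph2*+/- C had 36 and 8. Replicate 7 of *Tph2*-/- MS had 22 and 5.

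The hypothalamic genes were then examined in 2 lists, peptide genes and transcription factor genes, since other neurons of the lateral hypothalamus and its neighbours make other peptides. Of 15 listed peptide genes 14 were in the table, and 1 of them had a mean of at least 10 counts. *Avp*, *Oxt* and *Cartpt*, which encode vasopressin, oxytocin and the CART peptide, had 0 counts in all 48 mice, as had *mt-Atp8* and *mt-Nd4l*. *Hcrt*, which encodes orexin and marks neurons that lie among the MCH neurons, had between 0 and 3 counts and was 0 in 21 mice. The mouse with 705 *Parpbp* counts had 0 *Hcrt* and 0 *Trh* counts, and 7 of *Agrp*, a peptide gene of the arcuate nucleus that had between 4 and 21 over all mice. Other peptide genes were higher in it, with 4 counts of *Ghrh*, which encodes growth hormone-releasing hormone and had a median of 1 and no higher count in any mouse, 1 of *Gnrh1* (place 2, range 0 to 2) and 2 of *Pomc* (place 7, range 0 to 5). Summed over the peptide list it had 23 counts, which was in the middle of the 48 mice (place 25).

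By group, the peptide list summed to 12 to 33 counts per mouse without and 17 to 31 with MS for *Tph2*+/+, to 9 to 35 without and 17 to 33 with MS for *Tph2*+/-, and to 17 to 25 without and 11 to 33 with MS for *Tph2*-/-. All groups overlapped. The 26 transcription factor genes, which pattern or mark hypothalamic nuclei, summed to between 6 and 30 counts per mouse and to 21 in the mouse with 705 *Parpbp* counts (place 14). Among them *Nr5a1*, *Hmx2*, *Hmx3*, *Irx5* and *Bsx* had 0 counts in all mice, and *Nkx2-1*, which specifies the ventral hypothalamus, never had more than 1. In the mouse with 705 *Parpbp* counts *Foxb1* had 2 counts (place 2) and *Sim1* had 1 (place 3), against at most 3 for either gene.

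As non-coding genes often had more counts than the protein-coding genes opposite to them, the genes opposite to the listed ones were summed too. *Ctcf*, which encodes a chromatin insulator protein and lies for 114 bases opposite to *Agrp*, had between 7 and 42 counts and 35 in the mouse with 705 *Parpbp* counts (place 10). The 8 genes opposite to the transcription factor genes summed to between 4 and 19 counts, and to 15 in that mouse (place 6). Of them *Nkx2-2os*, opposite to *Nkx2-2*, had 10 counts there (place 3) against a range of 0 to 15. Over the 48 mice *Parpbp* had a rho of 0.14 with *Ctcf* (r = 0.15), which was 0.29 with raw counts and 0.01 within the 6 groups, and of -0.04 with the transcription factor side (r = 0.005). In the 16 *Tph2*+/- mice rho with *Ctcf* was -0.07 (permutation p = 0.795, adjusted p = 0.873) and r was 0.09 (permutation p = 0.728, adjusted p = 0.988), while r was 0.02 without the farthest pair. With the transcription factor side rho was 0.18 there (permutation p = 0.494, adjusted p = 0.873) and r was 0.19 (permutation p = 0.469, adjusted p = 0.988), while r was -0.10 without that pair. In edgeR's test none of the 31 listed hypothalamic genes tested was called for MS in *Tph2*+/- mice, where 1 had an unadjusted p below 0.05, against 4.87% of all genes, and DESeq2 called 0. None was called for GE2 either, where 3 had such a p, against 4.94% of all genes, and DESeq2 called 0. Beside these, *Ctcf* was lower for GE2 (lg2FC -0.66, SE 0.25, adjusted p = 0.889 in edgeR), against 0.614% of all genes called lower, and DESeq2 called it too.

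**Figure D4:**
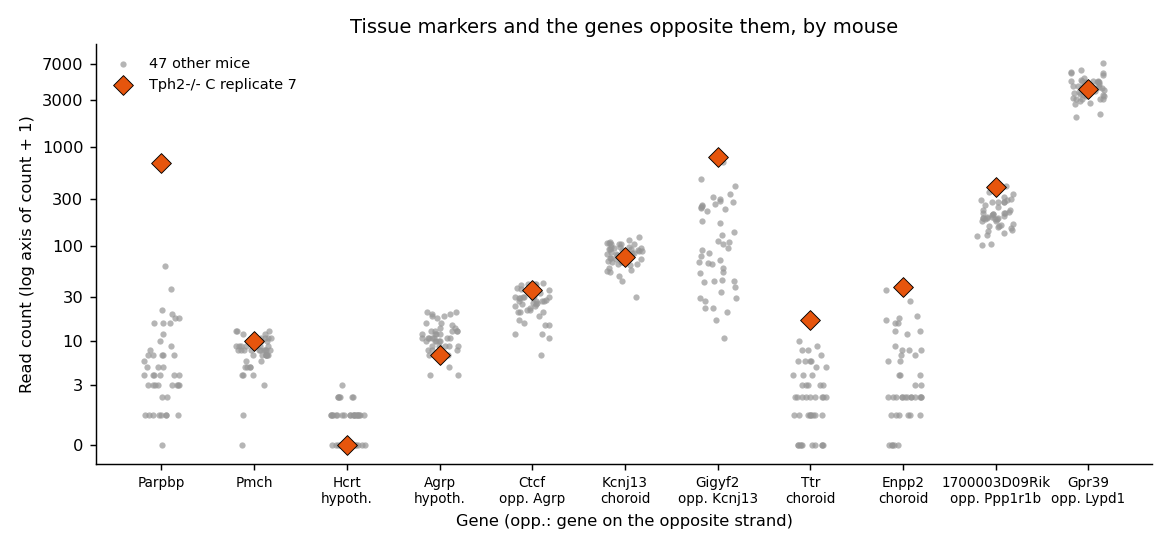
Read counts of *Parpbp*, *Pmch*, tissue markers and genes opposite to markers in each mouse, on a log axis of count + 1. The orange diamond is replicate 7 of *Tph2*-/- C, which lies among the 47 other mice (grey) for *Pmch*, *Hcrt*, *Agrp*, *Ctcf*, *Kcnj13* and *Gpr39* and above all of them for *Parpbp*, *Gigyf2*, *Ttr* and *Enpp2*.

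Genes of the choroid plexus were high in the same mouse. *Ttr*, which encodes the transthyretin that this epithelium secretes, had 17 counts there against a range of 0 to 17 and a median of 2. *Enpp2*, which encodes autotaxin, had 38 counts against a median of 2.5. *Gigyf2*, a translational repressor gene with 623 exonic bases opposite to the choroid plexus channel gene *Kcnj13*, had 803 counts against a median of 93. For all 3 genes this mouse was the highest of the 48, and it was also the highest for *Kl* with 4 and *Folr1* with 2 counts and level with the highest for *Clic6* with 3. *Kcnj13* itself had 77 counts in it (place 28), *Aqp1* and *Otx2* had 0, and the 11 listed choroid plexus genes summed to 146 counts (place 2).

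By group, the 11 choroid plexus genes summed to 36 to 122 counts per mouse without and 64 to 120 with MS for *Tph2*+/+, to 49 to 125 without and 61 to 113 with MS for *Tph2*+/-, and to 55 to 146 without and 66 to 155 with MS for *Tph2*-/-. The 3 genes opposite to them, nearly all of it *Gigyf2*, reached 805 counts among *Tph2*-/- C mice and 721 among *Tph2*-/- MS mice. Within these lists *Enpp2* was lower with MS in *Tph2*+/- mice (lg2FC -1.16, SE 0.34, adjusted p = 0.390 in edgeR), against 0.602% of all genes called lower there, and DESeq2 did not call it. *Gigyf2* was lower with MS in *Tph2*+/+ mice (lg2FC -1.15, SE 0.12, adjusted p = 6.66e-18 in edgeR) and higher for GE1 (lg2FC 1.13, SE 0.16, adjusted p = 5.36e-09 in edgeR) and GE2 (lg2FC 1.13, SE 0.16, adjusted p = 1.69e-08 in edgeR), which both subtract that effect in the same *Tph2*+/+ mice. DESeq2 called *Gigyf2* in none of the 3. The share of all genes called by edgeR in either direction was 1.57%, 1.75% and 1.01%, in that order. *Gigyf2* counts overlapped between *Tph2*+/+ C and MS mice. For MS in *Tph2*+/+ mice, 142 genes had an adjusted p below 0.05 in this fit. That number was 20 with robust edgeR, 1 with DESeq2 and 0 after filterByExpr, which left fewer genes to test. The SE and adjusted p of *Gigyf2* are therefore values of this fit and do not give the strength of an effect.

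High *Gigyf2* did not go with high *Parpbp* in every mouse. Replicate 6 of *Tph2*-/- MS had 721 *Gigyf2* and 27 *Enpp2* counts but 7 of *Parpbp*, and replicate 5 of that group had 477 *Gigyf2*, 35 *Enpp2* and 10 *Ttr* counts and also 7 of *Parpbp*. Replicate 4 of *Tph2*-/- MS, the next mouse after the highest for *Parpbp* with 62 counts, had 319 *Gigyf2*, 19 *Enpp2* and 9 *Ttr* counts, and replicate 5 of *Tph2*+/- C had 36 *Parpbp*, 299 *Gigyf2* and 7 *Ttr* counts. Replicate 7 of *Tph2*-/- MS had 22 *Parpbp* but 80 *Gigyf2* and 0 *Ttr* counts. Over the 48 mice rho between *Parpbp* and the genes opposite to choroid plexus genes was 0.20 and r was 0.26, which was 0.065 without the 2 farthest mice, and with the listed choroid plexus genes themselves rho was 0.29 and r was 0.36. In the 16 *Tph2*+/- mice rho with the genes opposite was -0.07 (permutation p = 0.805, adjusted p = 0.873) and r was -0.004 (permutation p = 0.988, adjusted p = 0.988), while r was -0.29 without the farthest pair. The part of neighbouring tissue in the *Parpbp* count was not tested.

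**Figure D5:**
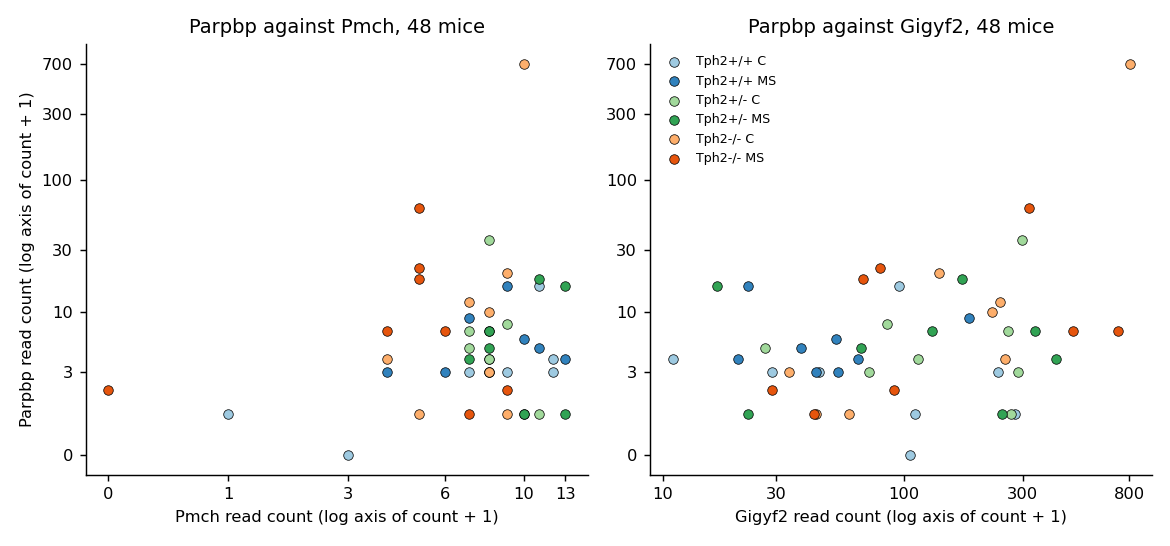
*Parpbp* read count of each of the 48 mice against that of *Pmch* (left) and of *Gigyf2*, the gene opposite to *Kcnj13* (right), on log axes of count + 1, with colours for the 6 groups. The mouse with 705 *Parpbp* counts has 10 *Pmch* counts and the highest *Gigyf2* count (803), while the mouse with 721 *Gigyf2* counts has 7 of *Parpbp*.

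Of 3 further tissue lists, the striatal one had the highest rho with *Parpbp*. Genes opposite to striatal genes, namely *1700003D09Rik* opposite to *Ppp1r1b* and *A830012C17Rik* opposite to *Penk*, had a rho with *Parpbp* of 0.42 and an r of 0.32 over the 48 mice, r was 0.35 without the farthest pair, and within the 6 groups rho was 0.32. In the 16 *Tph2*+/- mice the striatal rho was 0.31 (permutation p = 0.244, adjusted p = 0.873) and r was 0.38 (permutation p = 0.145, adjusted p = 0.988). Without the farthest pair of these mice rho was 0.59 (permutation p = 0.0290, adjusted p = 0.203) and r was 0.73 (permutation p = 0.00340, adjusted p = 0.0238), so that in *Tph2*+/- mice it passed the adjustment by r and not by rho, and not with all 16 mice. In the mouse with 705 *Parpbp* counts the first of these genes had 397 counts (place 2) and the other had 72 (place 45). The 4 genes opposite to thalamic genes had a rho of -0.05 over the 48 mice (r = -0.06) and of -0.04 over the *Tph2*+/- mice (permutation p = 0.873, adjusted p = 0.873), where r was -0.09 (permutation p = 0.731, adjusted p = 0.988) and 0.04 without the farthest pair. They summed to 69 counts in the mouse with 705 *Parpbp* counts (place 16), while the 7 listed thalamic genes summed to 23 there (place 2) against a range of 6 to 28. Of these *Tcf7l2*, a transcription factor gene of thalamic neurons, had 7 counts in it, the highest of the 48 mice, against a median of 3. *Gpr39*, opposite to the amygdala gene *Lypd1*, had between 2015 and 7132 counts and a rho of -0.03 over the 48 mice (r = -0.11). Over the *Tph2*+/- mice its rho was -0.07 (permutation p = 0.799, adjusted p = 0.873) and its r was -0.03 (permutation p = 0.923, adjusted p = 0.988), while r was 0.23 without the farthest pair. The 9 listed amygdala genes summed to between 4 and 37 counts per mouse, and none of them had a mean of 10. In the mouse with 705 *Parpbp* counts they summed to 18 (place 35), and *Gpr39* had 3917 (place 28).

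The calls in these 3 lists are given beside the share of all genes called in either direction. In edgeR that share was 1.57% for MS in *Tph2*+/+ mice, 0.959% for MS in *Tph2*-/- mice, 1.75% for GE1 and 1.01% for GE2. DESeq2 called 278 of 32234 genes for GE1 and 83 for MS in *Tph2*-/- mice. The lists are too short for their own shares to be compared with these. Of the amygdala genes *Slc17a7*, which encodes a vesicular glutamate transporter and had at most 8 counts in any mouse, was higher with MS in *Tph2*+/+ mice (lg2FC 1.77, SE 0.67, adjusted p = 0.547 in edgeR) and lower for GE1 (lg2FC -2.81, SE 0.85, adjusted p = 0.142 in edgeR). DESeq2 called 0 of the 9 amygdala genes in the first contrast and 1 in the other. Of the 9 listed striatal genes 4 had an unadjusted p below 0.05 in edgeR for MS in *Tph2*+/- mice, against 4.87% of all genes. EdgeR and DESeq2 called 0 of these 9 there, and 1 of them had a mean of at least 10 counts. On the striatal side *A830012C17Rik* was higher with MS in *Tph2*+/+ mice (lg2FC 0.33, SE 0.11, adjusted p = 0.338 in edgeR) and *1700003D09Rik* in *Tph2*-/- mice (lg2FC 0.40, SE 0.11, adjusted p = 0.330 in edgeR), and DESeq2 called neither. Among genes opposite to thalamic genes *Gm43352* was higher with MS in *Tph2*-/- mice (lg2FC 0.73, SE 0.24, adjusted p = 0.760 in edgeR), where DESeq2 called 1 of the 4, and *D130058E05Rik*, with at most 2 counts in any mouse, was called lower for GE2 (adjusted p = 0.750 in edgeR), where DESeq2 called 0.

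The partners of both genes were low as well. In the MCH pathway, the receptor gene *Mchr1* had between 0 and 3 counts and was 0 in 17 mice. The prohormone convertase genes *Pcsk1* and *Pcsk2*, whose enzymes cut peptide precursors, had means of 1.04 and 11.8 counts, while *Pcsk2os1* and *Pcsk2os2*, opposite to *Pcsk2*, had 535 and 990. *Cpe*, which encodes the carboxypeptidase that trims such peptides, had a mean of 105 counts and was the only 1 of the 10 genes called in any of the 5 contrasts, being lower with MS in *Tph2*-/- mice (lg2FC -0.40, SE 0.12, adjusted p = 0.685 in edgeR), against 0.549% of all genes called lower. DESeq2 called 0 of the 10.

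Of 21 genes of homologous recombination and proliferation in the table, 6 had a mean of at least 10 counts. The genes of the proteins that PARPBP binds had means of 0.896 for *Parp1* and 3.10 for *Pcna*. The helicase gene *Rad54l*, which lies for 1184 bases opposite to *Lrrc41*, had a mean of 272.8 counts. In the mouse with 705 *Parpbp* counts the list summed to 804 counts (place 17). *Parp1* had 4 counts there, level with the highest mouse, *Brca2* had 109 (place 3) and *Pcna* had 5 (place 6). *Rad54l* was at place 22, and the proliferation gene *Mki67* had 96 (place 9) and *Top2a* 1 (place 14). In the list, *Mki67* was called higher for GE1 (lg2FC 0.57, SE 0.18, adjusted p = 0.2003 in edgeR), against 0.546% of all genes called higher. *Rad51d*, with at most 2 counts in any mouse, was called lower with MS in *Tph2*-/- mice (adjusted p = 0.760 in edgeR), against 0.549% of all genes. DESeq2 called neither of them. For MS in *Tph2*+/- mice edgeR called 0 of the 21, with 3 at an unadjusted p below 0.05, against 4.87% of all genes, and DESeq2 called 0.

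The genes whose levels followed *Parpbp* most closely over the 48 mice were taken from 5643 genes with a mean of at least 10 counts, by Spearman's rho of CPM, and all of these genes share the libraries and their depth. *Gm11670*, a gene opposite to *Axin2*, had the highest rho, at 0.54 over the 48 mice, 0.56 without replicate 7 of *Tph2*-/- C and 0.59 with ranks within groups. It had between 21 and 78 counts per mouse, and 49 in the mouse with 705 *Parpbp* counts. The next were ENSMUSG00000085550 with 0.48 and *Foxp3*, opposite to *Ccdc22* among others, with 0.46. They were followed by *Pradc1*, opposite to *Cct7*, and *Zfp865*, opposite to *Zfp784*, both with 0.43. With ranks within groups the next after *Gm11670* were ENSMUSG00000097243 with 0.56 and *Gins2*, opposite to *Gse1*, with 0.50. The lists of 10 by each measure shared 4 genes, the lowest rho of any gene was -0.49 and the median was 0.01. The highest of 5643 rho is raised by the choice itself. The values of *Gm11670* under each measure share the same mice, so that they do not back each other.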

How the data were processed

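The authors deposited counts of read pairs per Ensembl gene for the 48 amygdala samples, without normalization. The submitters' processing notes name GRCm38.p5, STAR, HTSeq and DESeq2 without versions, and the annotation and the strand setting of the counting are not given in the sources used here. All 48 columns were matched to a mouse by the sample labels, and no 2 were identical. The 5 special rows (pairs counted for no gene, ambiguous and the like) stayed out of library sizes. Their largest, pairs counted for no gene, is given in the report. GENCODE M21, on GRCm38, held 48058 of the 48440 genes and gave positions and exons. The study's own comparison values were not used.

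Following the study, genes without any count and *Lars2* were dropped, so that 32234 remained. The model was edgeR's quasi-likelihood fit (version 4.0.16, R 4.3.3) after TMM scaling. All 48 mice entered it with a coefficient for each group, and p-values were adjusted by Benjamini-Hochberg. SE is the lg2FC divided by the square root of F. Calls used the study's thresholds, p below 0.01 before adjustment and a lg2FC beyond 0.2 in either direction. DESeq2 1.42.0 without a prior was an alternative, with its default replacement of outlying counts. Python 3.11.15 (SciPy 1.17.1, NumPy 2.4.6, pandas 2.3.3, matplotlib 3.10.9) gave the exact U tests of single genes, the 100000 permutations of each correlation and the figures. The fit and the U test were tested on simulated data.

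Other alternatives were DESeq2's size factors, filterByExpr, only genes that average 10 counts or more, *Lars2* retained, *Lars2* and *Gm42418* left out, robust edgeR, a replicate block, only the groups in the contrast, raw counts, and leaving out 4 libraries with over 500000 *Gm42418* counts or the 7 controls with the highest animal numbers. Leaving out replicate 7 of *Tph2*-/- C and correlations within the *Tph2*+/- mice alone were added after seeing the data. The planned p-values of correlations over all mice are not given, since *Parpbp* was chosen by values of some of these mice. Genes named are *Parpbp*, *Pmch*, *Lars2*, *Gm42418*, *Tph2*, list members with the genes opposite to them, and the 10 genes most like *Parpbp* by rho over mice and within groups. *9330162012Rik* was chosen after its value was seen. Some members of the lists are not reported here. The gene pair and the lists were chosen with earlier results of these data known. The labels call the 8 samples of a group separate animals by number, but do not give litters, so that mice may share one.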

Additional observations from a re-analysis of the deposited data

Results flagged for a closer look

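In each group of 8 mice, the highest and lowest value was compared with its nearest neighbour, for *Parpbp*, *Pmch* and the 6 sums over genes opposite to tissue markers. *Parpbp*, which was chosen by its values in the *Tph2*+/+ and *Tph2*-/- groups, is given as a description. Leaving it out, 9 of the 42 group values examined stood apart from the rest of their group. Chance gives about 1 in 20 where values are normally distributed. CPM sums such as those opposite to choroid plexus genes are skewed, so that no excess over chance can be read from this.

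*Parpbp* had such a mouse in 4 groups, each a single high one. Replicate 5 of *Tph2*+/+ C had 23.3 CPM, where its group otherwise reached 4.68. Replicate 5 of *Tph2*+/- C had 47.6 CPM, where the others reached 9.80. Replicate 7 of *Tph2*-/- C had 768.8 CPM against at most 23.1, and replicate 4 of *Tph2*-/- MS had 73.3 CPM against at most 32.3. *Pmch* had no such mouse.

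For genes opposite to choroid plexus genes, replicate 7 of *Tph2*-/- C was again the high mouse, with 877.8 CPM against at most 325.1 in its group, and replicate 3 of *Tph2*+/+ MS had 248.9 CPM against at most 75.9. For the gene opposite to *Agrp*, replicate 6 of *Tph2*+/+ C was low with 17.4 CPM. For the genes opposite to hypothalamic transcription factor genes, that same replicate was high with 26.05 CPM, as was replicate 5 of *Tph2*-/- C with 24.2 CPM. Replicate 4 of *Tph2*-/- C was high with 99.1 CPM for the thalamic sum, and replicate 7 of *Tph2*-/- MS with 803.8 CPM for the striatal sum. *Gpr39*, opposite to the amygdala gene *Lypd1*, was low with 3683 CPM in replicate 4 of *Tph2*+/- MS and high with 9630 CPM in replicate 8 of *Tph2*-/- MS.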

How the results depend on the processing

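The GE2 value of *Parpbp* changed sign from -2.99 to 0.60 with DESeq2, to 0.56 without replicate 7 of *Tph2*-/- C and to 0.88 when the 7 controls of the highest animal numbers, that mouse among them, were left out. It moved to -2.07 with the replicate block. DESeq2 used 5 in place of the 705 counts of that mouse. Same-numbered *Tph2*+/- mice did not deviate together (correlations of -0.255 to 0.034 over 8 pairs), so that the numbers do not pair the mice. With the replicate block the MS effect in *Tph2*+/- mice was -0.21 for *Parpbp* and 0.22 for *Pmch*, and exact sign flips within numbers gave p = 0.906 and p = 0.195 (n = 8 pairs). Neither gene was called for MS in *Tph2*+/- mice under any alternative run.

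The median difference of *Parpbp* between *Tph2*+/- MS and C was 0.61 CPM, and -1.06 CPM without the 7 controls (p = 0.755, exact permutation). The number of genes called for MS in *Tph2*+/- mice fell from 325 to 67 with DESeq2, 46 with filterByExpr and 42 where genes had to average 10 counts, where fewer genes were tested in the last settings and *Pmch* gave no value in the very last.

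Several rho near 0 changed sign. Between *Parpbp* and *Pmch* it went from -0.005 to 0.0527 with raw counts, 0.0302 without the 2 farthest mice, 0.238 within groups, 0.0554 without the 7 controls and 0.0912 in the *Tph2*+/- mice, which were taken alone after seeing the data. For the listed peptide genes in place of the gene opposite it was -0.110, against 0.142, and for that gene itself 0.293 with raw counts, 0.0612 without the 2 farthest mice, 0.0119 within groups, -0.0706 in the *Tph2*+/- mice and -0.209 there without the farthest pair. The transcription factor sum went from -0.037 to 0.0802 with raw counts, 0.149 with the listed genes and 0.182 in the *Tph2*+/- mice, and the thalamic sum from -0.051 to 0.155, 0.0119 within groups, 0.0108 without the 7 controls and 0.00659 in the *Tph2*+/- mice without the farthest pair. The choroid plexus sum went from 0.2007 to -0.0676 in the *Tph2*+/- mice and -0.297 there without that pair. The amygdala gene went from -0.027 to 0.145 with raw counts, 0.00555 without replicate 7 of *Tph2*-/- C and 0.196 in the *Tph2*+/- mice without the farthest pair. The striatal rho (0.418, a description over the 48 mice) was 0.321 within groups, 0.305 with the listed genes, and 0.309 in the *Tph2*+/- mice and 0.591 there without the farthest pair, neither of which passed the adjustment. The cause was not tested. Of 128 values recomputed, 96 kept their direction and side of the threshold or stayed within the spread, 24 changed sign, 4 moved and 4 fell short of a threshold that the first value had passed. Depth limits both genes, with medians of 4 and 8 counts per mouse.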
